A study of Mus musculus with 9 samples.

Results

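A set of 7 genes through which a mouse oocyte exchanges signals with its granulosa cells was followed across all 9 libraries of the series. They are Gdf9, Bmp15, Bmp6, Fgf8, Oosp1, Kit and Gja4, taken by symbol whatever their values, and they make up 7 of the 24228 genes used. All 7 passed the filter on low values and are among the 10801 genes tested. RNA was sequenced from fully grown oocytes at the germinal vesicle stage, the prophase arrest before meiosis resumes. In the MG group (3 libraries) Mtor, which encodes the kinase of the mTOR complexes, was conditionally deleted with Cre driven by the Gdf9 promoter, in the MZ group (3 libraries) with Cre driven by the Zp3 promoter, and the WT group (3 libraries) was wild type. Both promoters are active in oocytes, and Gdf9-Cre acts from an earlier follicle stage than Zp3-Cre. All mice were C57BL/6 females. They received 5 IU of PMSG, which stimulates follicles to grow, and oocytes were taken from large antral follicles 46 h later. The design text gives their age as 23 days and the sample labels as 6 months, and this was not resolved. Whether the WT mice carried floxed Mtor alleles, and how many oocytes and animals stand behind a library, the sources used here do not say, so p-values measure only how these libraries vary, and that variation may be technical.

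The oocyte and its surrounding granulosa cells depend on each other throughout follicle growth. The oocyte secretes TGF-beta family ligands (GDF9, BMP15, BMP6) and FGF8, which act on receptors of granulosa and cumulus cells and control their proliferation, metabolism and expansion. In return, granulosa cells supply KIT ligand to the receptor KIT on the oocyte, and small molecules pass between the cells through gap junctions, to which the oocyte contributes connexin 37, the product of Gja4. OOSP1 is an oocyte-secreted protein of less well known function.

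The measured level is FPKM, the number of sequenced fragments scaled by transcript length and library size. A library held roughly 473000 to 847000 fragments by an estimate from the lowest FPKM values, so that 1 fragment on a 2 kb transcript was worth 0.686 to 1.23 FPKM. The summed FPKM was 498936 ± 64355 in MG, 670216 ± 10778 in MZ and 652537 ± 67110 in WT (SD, n = 3 each). Markers of oocytes were abundant, led by Zar1, and their 12 genes summed to 3866 to 8949 FPKM in MG, 11330 to 11630 FPKM in MZ and 7551 to 12360 FPKM in WT. The 20 granulosa and cumulus markers summed to 22.9 to 42.4 FPKM in MG, 24.5 to 29.7 FPKM in MZ and 22.2 to 35.6 FPKM in WT, with Foxl2 and Slc38a3 listed at 0 in all 9 libraries. Mtor itself had 5.25, 6.00 and 4.64 FPKM in MG and 6.55, 4.67 and 4.39 FPKM in MZ, against 3.25, 3.33 and 2.95 FPKM in WT. The gene-level Mtor value was thus not lower in the libraries labelled as deleted, and since it covers the whole transcript and the sources used here do not name the deleted exons, it does not check the deletion. MG, MZ and WT below mean the libraries so labelled.

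A pair of libraries stood apart for several of the 7 genes. In WT 1, 90 of the 3002 genes with a mean of at least 20 FPKM (3.00%) were more than 2-fold above both WT 2 and WT 3, and Oosp1 and Gja4 were among them. In MG 3, which had the lowest FPKM sum (428329) and the most estimated fragments (847000), Gdf9, Gja4, Oosp1, Fgf8 and Bmp15 lay 0.79 to 1.23 log2 units below the mean of MG 1 and MG 2, whereas the median of those 3002 genes lay 0.12 below. These 2 descriptions were chosen after the values were seen. In bulk RNA, fewer oocytes of a kind and less RNA per oocyte cannot be told apart.

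The genes kept a stable order of level. In 8 of 9 libraries the order was Gdf9, Bmp15, Gja4, Oosp1, Fgf8, Kit and Bmp6, from highest to lowest FPKM. In the remaining library, MG 3, Kit stood above Fgf8. Gdf9 ranked 1 or 2 among all genes in every library, and its level was 4.61 to 7.49 times that of Bmp15. Bmp15 ranked between 23 and 40, and Bmp6 between 1909 and 3123. The FPKM ratio of Bmp15 to Gja4 was 1.42 at the lowest, 2.37 at the median and 4.22 at the highest, and that of Fgf8 to Kit 0.917, 2.52 and 3.45. Fgf8 was above Kit by 1.43 to 3.45 times in 8 of 9 libraries and below it only in MG 3. Gja4 was above Oosp1 within every library, by 1.79 to 2.91 times, although their ranges over the 9 libraries overlapped. Together the 7 genes made up 4.09, 3.54 and 2.19% of the FPKM sum in MG, 3.58, 3.73 and 3.68% in MZ and 3.28, 3.32 and 3.29% in WT.

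**Figure D1:**
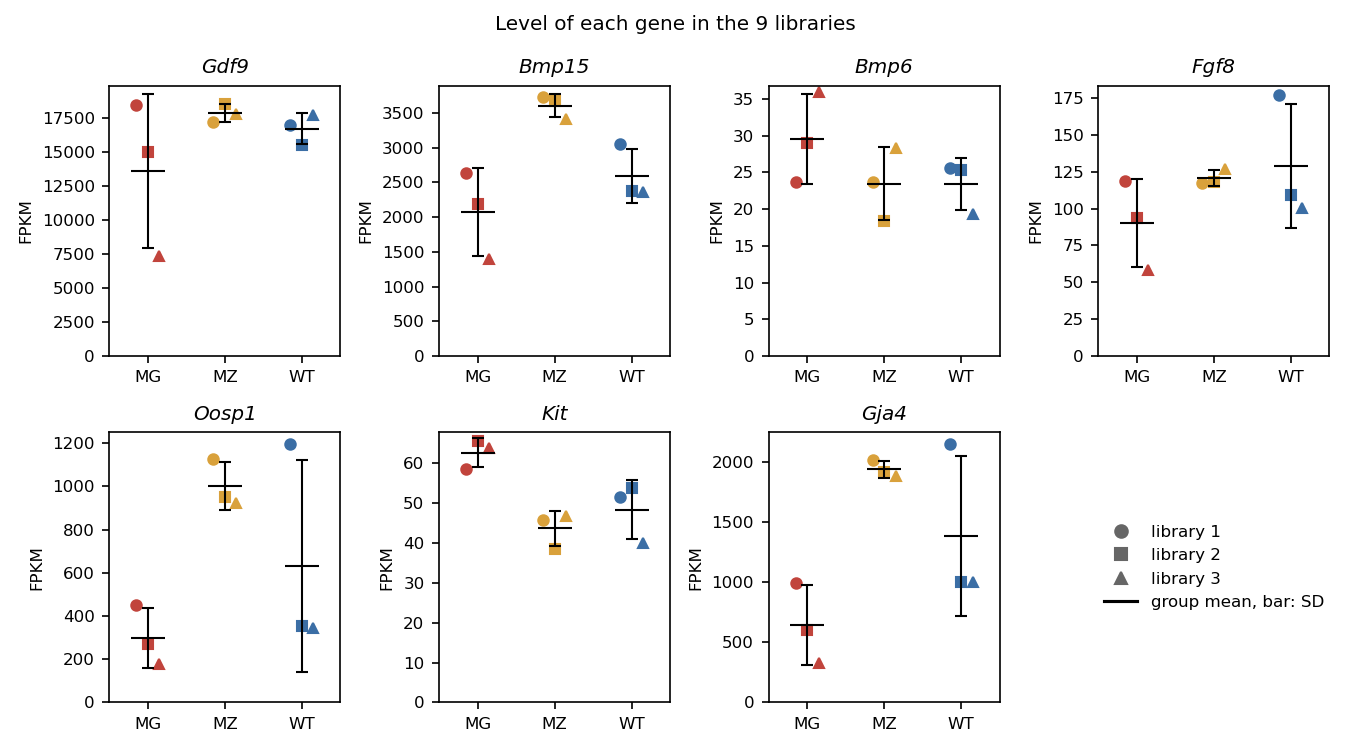
Level of each gene in FPKM (y axis, from 0) in the MG, MZ and WT libraries (x axis). Points are libraries, with a symbol for each library number, and black lines are the group mean ± SD (n = 3 each). MG 3 is the lowest point for Gdf9, Bmp15, Fgf8, Oosp1 and Gja4, and WT 1 lies far above WT 2 and WT 3 for Oosp1 and Gja4.

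Across the 7 genes, no difference between groups passed the test. With limma's moderated test on log2(FPKM + 1) over all tested genes, at an adjusted p under 0.05, 0 of 7 passed for MG against WT (0.343% of all tested genes passed), 0 of 7 for MZ against WT (0.0370%) and 0 of 7 for MG against MZ (0.130%). At an unadjusted p under 0.05, limma took 1 of 7 for MG against WT (17.7% of all tested genes), 0 of 7 for MZ against WT (6.30%) and 4 of 7 for MG against MZ (17.6%). In the authors' deposited table, computed with Cuffdiff, q was under 0.05 for 2 of 7 in MG over WT (4.13% of the same genes), 1 of 7 in MZ over WT (0.787%) and 5 of 7 in MZ over MG (9.05%). Counted by overlap alone, 1 of 7 genes had every MG library above WT (11.6% of all tested genes) and 1 had every MG library below WT (9.89%). In MZ 1 gene lay above WT throughout (5.67%) and 0 below (6.52%), and in MG 1 gene lay above MZ throughout (12.8%) and 3 below (12.3%). The median log2 fold change of the 7 genes was -0.40 for MG against WT, 0.10 for MZ against WT and -0.50 for MG against MZ, beside 0.04, 0.01 and 0.04 over all tested genes. Scaling every library to the same FPKM sum moved the median of all genes to 0.36 for MG against WT and 0.39 for MG against MZ, and the median of the 7 genes to -0.01 and -0.06. The 3 comparisons share libraries and are not independent of each other.

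**Figure D2:**
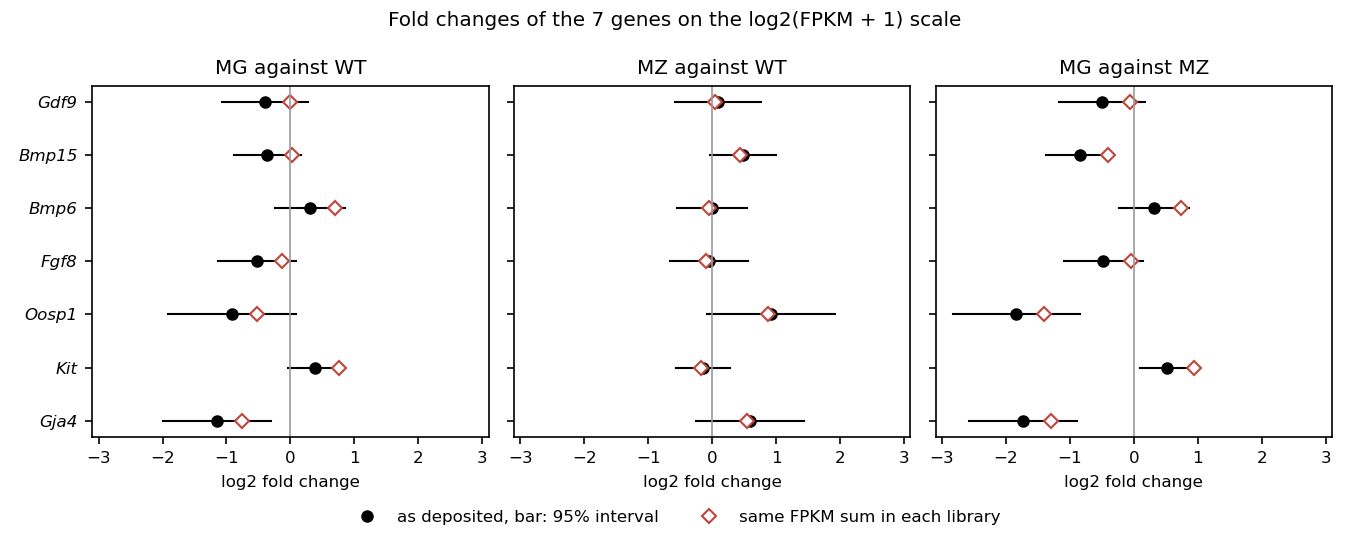
Log2 fold changes of the 7 genes (x axis, log2(FPKM + 1) scale) in 3 comparisons. Black points and bars are the limma estimate with its 95% interval from the deposited FPKM, and open diamonds are the estimate after scaling all libraries to the same FPKM sum, which lies above the black point for every gene in the comparisons of MG and carries Bmp15 in MG against WT to the other side of 0 (0.03).

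GDF9 is needed for follicles to grow beyond the primary stage in mice and for cumulus expansion. Its gene lies on chromosome 11 at chr11:53431023-53437904 (plus strand, GRCm38). Gdf9 had 18400, 14940 and 7327 FPKM in MG, 17186, 18480 and 17781 FPKM in MZ and 16933, 15466 and 17655 FPKM in WT. MG 1 lay just above the WT range, MG 2 just below it and MG 3 far below it, so MG overlapped both other groups. The means were 13556 ± 5665 FPKM in MG, 17816 ± 648 FPKM in MZ and 16685 ± 1115 FPKM in WT (SD, n = 3 each). Set against WT, MG had a log2 fold change of -0.40 (95% interval -1.07 to 0.27, adjusted p = 0.53), which was -0.01 without MG 3 and -0.01 with equal FPKM sums. MZ had one of 0.10 (-0.57 to 0.77, adjusted p = 0.98), which changed sign under quantile normalization (-0.09). As a share of the FPKM sum, Gdf9 took 2.65% in MG, 2.66% in MZ and 2.57% in WT, so the lower mean FPKM in MG had no counterpart in the share (MG minus WT 0.0786 percentage points, exact permutation p = 0.9, adjusted p = 0.995 over 21 tests). The authors' deposited table gives MZ over MG a log2 fold change of 0.41 with q = 0.0157. For MG against MZ limma gives -0.50 with an adjusted p of 0.43, or -0.10 without MG 3 and 0.09 with quantile normalization. Gdf9 ranked 1 or 2 among all genes in every library. Quantile normalization therefore gives Gdf9 1 of the same 2 top values whatever its level, so -0.09 and 0.09 do not check its fold change.

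Bmp15, the X-linked paralogue that acts together with GDF9, was the gene of the 7 whose MZ libraries all lay above both other groups. It lies at chrX:6314107-6320721 (minus strand, GRCm38). Its level was 2642, 2191 and 1393 FPKM in MG, 3725, 3674 and 3414 FPKM in MZ and 3048, 2374 and 2359 FPKM in WT. Every MZ library was above every library of MG and WT, while MG and WT overlapped. Of all tested genes, 5.67% lay above WT in MZ without overlap and 12.3% lay below MZ in MG. The share that meets both was not computed, nor was one for the ratio to Gdf9 below. MZ against WT gave a log2 fold change of 0.48 (95% interval -0.04 to 1.01, adjusted p = 0.79) and MG against MZ one of -0.84 (-1.37 to -0.32, adjusted p = 0.11), or -0.41 with equal FPKM sums and -0.16 with quantile normalization. The authors' deposited table gives MZ over MG 0.81 with q = 0.0433. For MG against WT limma gave -0.36 (adjusted p = 0.47), but 0.03 with equal FPKM sums and 0.24 with quantile normalization, so this direction depends on the scaling. Relative to Gdf9 in the same library, a measure free of library scaling, Bmp15 stood at 160 ± 26.0 per 1000 FPKM of Gdf9 in MG, 203 ± 12.8 in MZ and 156 ± 23.3 in WT (SD, n = 3 each). MZ was above the other groups in all libraries here too, with an exact permutation p of 0.1 in each comparison, the smallest that 3 against 3 allows (adjusted p = 0.3 over 18 tests).

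Bmp6, a ligand made by oocytes and also by granulosa cells, was the least abundant of the set. Its gene spans chr13:38345107-38500302 (plus strand, GRCm38) and overlaps Txndc5 and the antisense transcript 4930579J19Rik on the other strand. Since the treatment of strand in counting is not given, reads from the stretches these genes share cannot be told apart. In the authors' deposited table the span of Bmp6 ends earlier, at 38499728, and only 4930579J19Rik shares its locus. That gene is listed at 0 in all 9 libraries. Bmp6 had 23.7, 29.0 and 35.9 FPKM in MG, 23.7, 18.4 and 28.3 FPKM in MZ and 25.6, 25.3 and 19.4 FPKM in WT. All groups overlapped, and unlike Gdf9 and Bmp15 its highest value was in MG 3. The log2 difference of MG minus WT was 0.31 (95% interval -0.23 to 0.86, adjusted p = 0.55) and that of MG minus MZ 0.32 (-0.23 to 0.87, adjusted p = 0.55), or 0.69 and 0.74 with equal FPKM sums. MZ minus WT was -0.01 (adjusted p = 1.0), on either side of 0 under different scalings. With an estimated 31 to 101 fragments per library, counting error is large for this gene.

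Fgf8, which together with BMP15 promotes glycolysis in mouse cumulus cells, lies at chr19:45736798-45742915 (minus strand, GRCm38). It had 119, 93.5 and 58.5 FPKM in MG, 118, 118 and 127 FPKM in MZ and 177, 109 and 101 FPKM in WT. The groups overlapped, with WT 1 the highest library and MG 3 the lowest. In log2 units MG minus WT was -0.52 (95% interval -1.14 to 0.09, adjusted p = 0.36), or -0.24 without MG 3, -0.27 without WT 1 and -0.14 with equal FPKM sums. MZ minus WT was -0.05 (-0.66 to 0.57, adjusted p = 0.99), or 0.20 without WT 1, on the other side of 0, and MG minus MZ was -0.48 (adjusted p = 0.40), or -0.20 without MG 3 and -0.05 with equal FPKM sums. The ratio to Gdf9 was 6.90 ± 0.950 per 1000 in MG, 6.80 ± 0.382 in MZ and 7.74 ± 2.46 in WT. Fgf8 rested on an estimated 43 to 85 fragments per library.

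Oosp1 had the widest range of the set, 6.81-fold between its lowest and highest library. The gene lies at chr19:11667460-11691150 (minus strand, GRCm38) and has the shortest transcript of the 7 (972 bp). Its level was 450, 272 and 176 FPKM in MG, 1127, 950 and 922 FPKM in MZ and 1196, 353 and 343 FPKM in WT. MG lay below MZ in every library. WT 1 lay just above MZ, while WT 2 and WT 3 lay among the MG libraries. For MG against MZ the log2 fold change was -1.84 (95% interval -2.84 to -0.84, adjusted p = 0.084). It passed without MG 1 (adjusted p = 0.0451) and without WT 1 (adjusted p = 0.0218). Leaving out WT 1 does not change this fold change but alters the shared spread and the genes tested (10620). For MG against WT it was -0.92 (-1.91 to 0.08, adjusted p = 0.33), or -0.32 without WT 1, -0.59 without MG 3 and -0.53 with equal FPKM sums. For MZ against WT it was 0.92 (-0.08 to 1.92, adjusted p = 0.79), and 1.51 without WT 1, where it did not pass (adjusted p = 0.222). With WT 1 and MG 3 left out together, an alternative chosen after seeing the data, the same value passed (adjusted p = 0.0354), and MG against WT was 0.005, on the other side of 0. The authors' deposited table gives q = 0.0044 for MG over WT (log2 fold change -1.10), q = 0.045 for MZ over WT (0.67) and q = 0.000639 for MZ over MG (1.76).

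The related Oosp2 and Oosp3 were also expressed. Oosp2, one of the 2 most abundant genes of the fixed list of related oocyte factors, averaged 370 ± 38.5 FPKM in MG, 616 ± 88.1 FPKM in MZ and 607 ± 136 FPKM in WT (SD, n = 3 each), and MG against WT had a log2 fold change of -0.70 (adjusted p = 0.13). Oosp3, named after its values were seen, had 225, 197 and 105 FPKM in MG, 583, 502 and 417 FPKM in MZ and 536, 233 and 191 FPKM in WT. As with Oosp1, WT 1 was near MZ and WT 2 and WT 3 were near MG. Oosp3 did not pass for MG against MZ either (log2 fold change -1.57, adjusted p = 0.082).

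Kit, the receptor through which granulosa-derived KIT ligand activates PI3K in the oocyte, was the gene of the set with all MG libraries above both other groups. It lies at chr5:75574916-75656722 (plus strand, GRCm38). Kit had 58.5, 65.5 and 63.8 FPKM in MG, 45.6, 38.5 and 46.7 FPKM in MZ and 51.4, 53.6 and 39.9 FPKM in WT. MG overlapped neither MZ nor WT, which overlapped each other. Of all tested genes, 11.6% lay above WT in MG without overlap and 12.8% above MZ. The share that meets both was not computed. MG against WT gave a log2 fold change of 0.38 (95% interval -0.04 to 0.80, adjusted p = 0.34) and MG against MZ one of 0.51 (0.09 to 0.94, adjusted p = 0.19), while MZ against WT gave -0.14 (adjusted p = 0.92). With equal FPKM sums MG gave 0.76 against WT and 0.94 against MZ, and with the trend on transcript length removed, an alternative added after seeing the data, 0.16 against WT and 0.32 against MZ. Kit has the longest transcript of the 7 genes (5241 bp). Among genes with a mean of at least 20 FPKM, the median log2 fold change of MG against WT was -0.33 for the 248 genes with transcripts under 1000 bp, -0.37 from 1000 to 2000 bp (746 genes), -0.25 from 2000 to 4000 bp (1253 genes) and -0.03 from 4000 bp on (633 genes), so the median was nearest to 0 in the longest transcripts. Oosp1 lies in the shortest of these classes, Gdf9, Fgf8 and Gja4 in the next, and Bmp15 and Bmp6 in the one after. The part of transcript length in the values of Kit or the other genes was not tested. For Kit, the authors' deposited table gives MZ over MG a log2 fold change of -0.51 with q = 0.0427.

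Gja4, the connexin that oocytes contribute to the gap junctions with granulosa cells, had the fold change farthest from 0 of the 7 genes for MG against WT on the deposited FPKM, whereas with equal FPKM sums Kit (0.76) and Gja4 (-0.75) were about as far. It lies at chr4:127311421-127314039 (minus strand, GRCm38). Gja4 had 995, 606 and 330 FPKM in MG, 2013, 1916 and 1879 FPKM in MZ and 2151, 999 and 997 FPKM in WT. MG lay below MZ in every library by a wide gap and below WT by a very small one (995.4 FPKM in MG 1 and 996.7 FPKM in WT 3). MG against WT gave a log2 fold change of -1.14 (95% interval -1.99 to -0.30, adjusted p = 0.17), and MZ against WT one of 0.59 (-0.26 to 1.43, adjusted p = 0.85). MG against MZ gave -1.73 (-2.57 to -0.88, adjusted p = 0.080). MG against MZ passed without MG 1 (adjusted p = 0.0364) and without WT 1 (adjusted p = 0.0349). The MG against WT value was -0.73 without MG 3, -0.77 without WT 1, -0.75 with equal FPKM sums and -0.36 with WT 1 and MG 3 left out together (adjusted p = 0.485). As a share of the FPKM sum MG and WT overlapped (0.125% in MG and 0.208% in WT, exact permutation p = 0.3, adjusted p over 21 tests in the same family 0.7). The authors' deposited table gives q = 0.00714 for MG over WT (log2 fold change -1.12) and q = 0.000639 for MZ over MG (1.60). Gja1, the connexin of the granulosa side, was near 0, listed at 1.49, 0 and 1.25 FPKM in MG, 0, 0 and 1.19 FPKM in MZ and 1.29, 0.706 and 0.731 FPKM in WT.

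Relative to Gdf9 in the same library, the MG libraries lay close together for Bmp15, Fgf8, Oosp1 and Gja4 but not for Kit and Bmp6. Oosp1 stood at 24.4, 18.2 and 24.0 per 1000 FPKM of Gdf9 in MG, 65.6, 51.4 and 51.9 in MZ and 70.6, 22.9 and 19.4 in WT. Gja4 stood at 54.1, 40.6 and 45.1 in MG, 117, 104 and 106 in MZ and 127, 64.6 and 56.5 in WT. On this measure MG lay below MZ without overlap for Oosp1 and Gja4, and below WT without overlap for Gja4 (exact permutation p = 0.1, adjusted p = 0.3). How many of all genes do so relative to Gdf9 was not computed. By FPKM, 12.3% of all tested genes lay below MZ in MG without overlap and 9.89% below WT. WT 1 was again apart from WT 2 and WT 3. Kit stood at 3.18, 4.38 and 8.71 in MG, 2.65, 2.08 and 2.63 in MZ and 3.04, 3.47 and 2.26 in WT, with MG 3 the highest. Gdf9 itself was lowest in MG 3 (7327 FPKM), where Kit (63.8 FPKM) lay between MG 1 (58.5 FPKM) and MG 2 (65.5 FPKM). The log2 ratio difference of MG minus MZ for Kit was 1.02, or 0.61 without MG 3. The exact permutation test gave p = 0.1 for MG against MZ for Oosp1, Gja4 and Kit, the smallest possible (adjusted p = 0.3 over 18 tests).

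**Figure D3:**
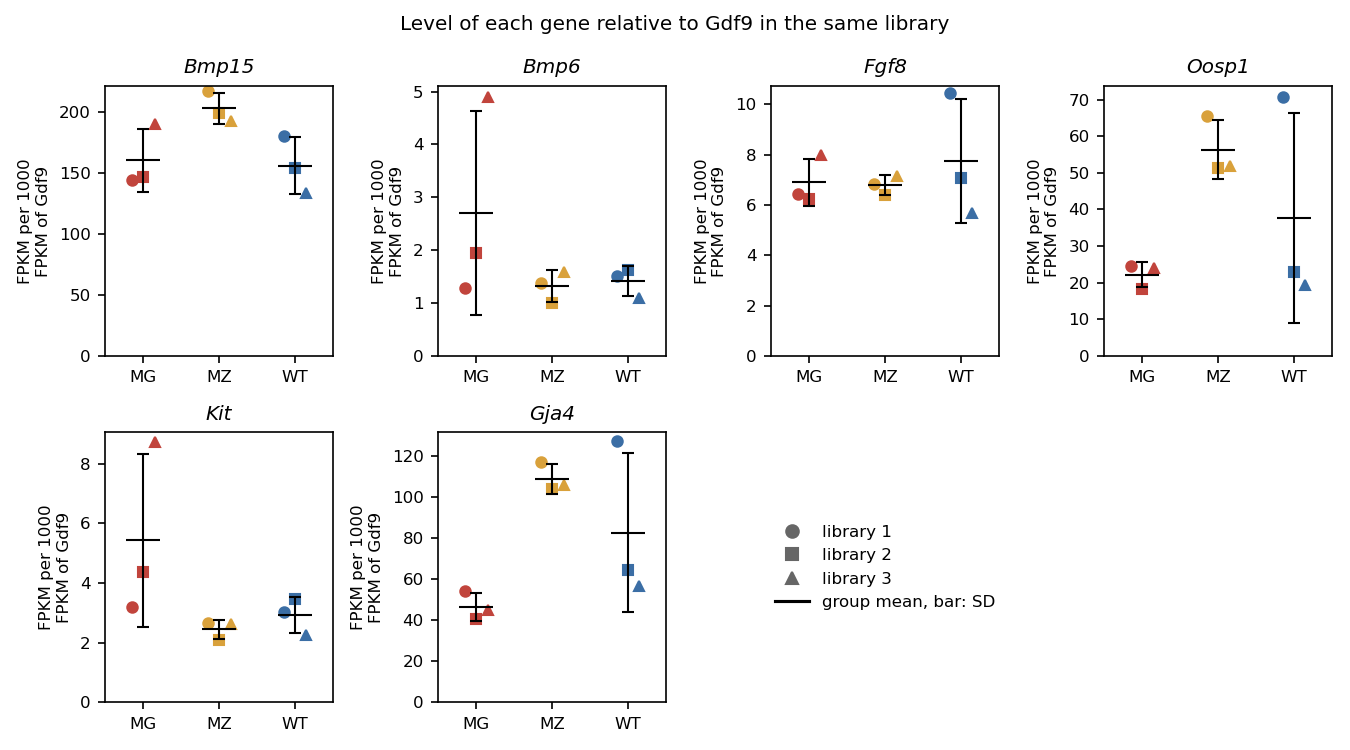
FPKM of 6 genes per 1000 FPKM of Gdf9 in the same library (y axis, from 0) for MG, MZ and WT (x axis). Points are libraries and black lines the group mean ± SD (n = 3 each). The MG points of Oosp1 (18.2 to 24.4) and Gja4 (40.6 to 54.1) lie close together and below all MZ points. MG 3, the library with the lowest Gdf9, is the highest point for Kit and Bmp6.

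The genes nearest in profile were found for each of the 7 by the root mean square difference of centred log2(FPKM + 1) values over the 9 libraries, among 2818 candidates of at least 20 FPKM on average. These 9 points share their libraries' depth and scaling, so the values are a description. For Gdf9 they were Ube2d3 (0.06 log2 units), Cpeb1 (0.08) and Pkm (0.09). For Bmp15 they were Kpna7, Hgs and Timm8a2, for Bmp6 Ppp4r2, Wnk1 and Bmpr1b, and for Fgf8 Sys1, Scamp4 and Tm9sf2. Oosp1 was nearest to Pnrc1 (0.09), Ooep (0.11) and Txnip (0.19), Gja4 to Tubb4b (0.11), Tubb3 (0.11) and Tceb1 (0.13), and Kit to Lrrc59, Matr3 and Cecr2. Within the set, Gja4 was the 12th nearest to Oosp1 (0.24) and Kit the 13th nearest to Bmp6 (0.16).

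**Figure D4:**
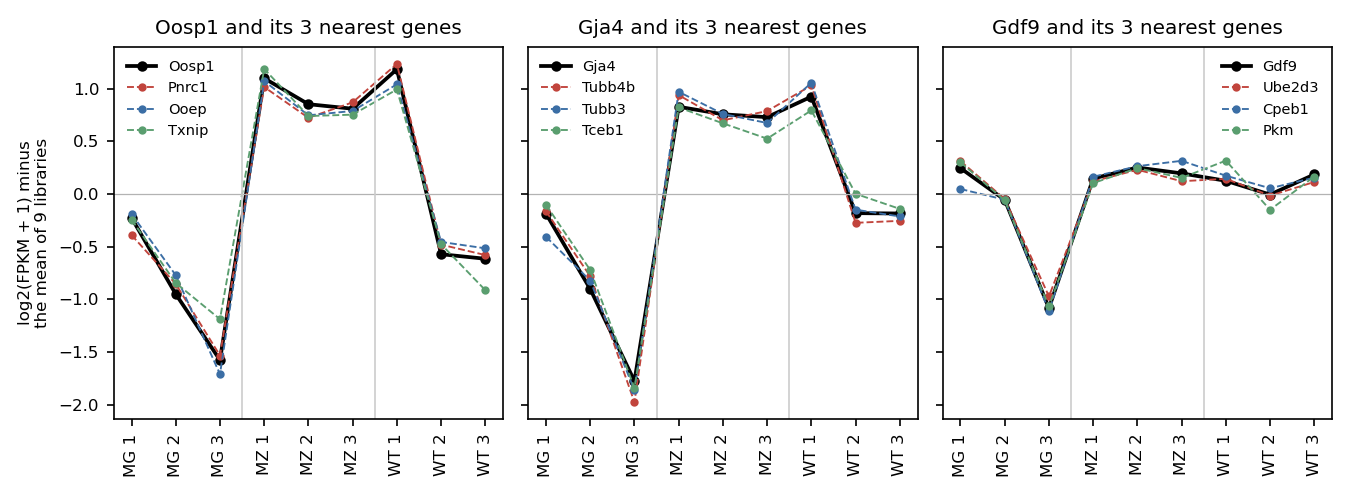
Centred log2(FPKM + 1) (y axis) of Oosp1, Gja4 and Gdf9 (black) and their 3 nearest genes (dashed) in the 9 libraries (x axis). In the panels of Oosp1 and Gja4 the dashed lines share the high MZ and WT 1 points and the low MG 3 point, and in the panel of Gdf9 the MG 3 point is the low one.

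The promoters of Oosp1, Gja4 and Bmp15 are shown because these 3 genes stood lower in every MG library than in every MZ library. Each is the 250 bases before the gene's start, 5′ to 3′ on the gene's strand, from a RefSeq-derived table on GRCm38.p6. Windows of 5 of the 7 genes were matched in it. Capitals mark the E-box CANNTG, the elements TAATTG and TAATTA, and TATAAA, each on either strand, a set of motifs picked after the results were known. The windows are chr19:11691052-11691301 for Oosp1, chr4:127314040-127314289 for Gja4 and chrX:6320725-6320974 for Bmp15, all on the minus strand.
Oosp1: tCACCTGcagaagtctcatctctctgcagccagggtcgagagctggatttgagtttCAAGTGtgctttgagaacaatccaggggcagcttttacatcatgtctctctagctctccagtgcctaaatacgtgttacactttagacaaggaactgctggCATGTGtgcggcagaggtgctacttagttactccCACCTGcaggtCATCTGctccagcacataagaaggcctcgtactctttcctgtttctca
Gja4: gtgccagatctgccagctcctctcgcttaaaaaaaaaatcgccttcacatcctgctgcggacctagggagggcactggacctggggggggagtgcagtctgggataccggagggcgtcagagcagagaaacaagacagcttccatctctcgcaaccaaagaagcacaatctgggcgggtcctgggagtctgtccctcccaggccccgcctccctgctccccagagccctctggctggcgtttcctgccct
Bmp15: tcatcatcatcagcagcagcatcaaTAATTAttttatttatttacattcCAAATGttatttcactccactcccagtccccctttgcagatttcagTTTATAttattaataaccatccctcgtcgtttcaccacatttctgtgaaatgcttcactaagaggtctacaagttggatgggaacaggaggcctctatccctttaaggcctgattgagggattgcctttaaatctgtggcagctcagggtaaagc
Oosp1 held 5 E-boxes, at 249, 194, 93, 59 and 48 bases before the start. Bmp15 held 1 E-box, 1 TAATTA element and 1 TATAAA match (as TTTATA), and Gja4 held none of the motifs searched. Of 32851 promoter windows of this length, 66.2% held an E-box, 7.17% TAATTG, 4.84% TAATTA and 12.4% TATAAA. Bmp6 held 2 E-boxes and Kit none of the motifs. The GC content was 49.2% in Oosp1, 61.2% in Gja4 and 40.4% in Bmp15, beside a median of 52.4% over all windows.

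Transcripts of receptors and mediators of the TGF-beta family were found in the oocyte libraries, and none of the list passed. Which cells these transcripts came from was not tested. Of 20 genes, 17 were tested, and limma called 0 in each of the 3 comparisons, as in each list that follows. The list's median, in log2 units, was 0.20 for MG against WT, 0.08 for MZ against WT and 0.25 for MG against MZ. The most abundant were Smad3, which transmits GDF9-type signals, with 34.6 ± 5.13 FPKM in MG, 32.5 ± 7.36 FPKM in MZ and 34.2 ± 9.06 FPKM in WT, and the BMP receptor Bmpr1b with 34.2 ± 9.46 FPKM in MG, 30.1 ± 5.04 FPKM in MZ and 31.4 ± 5.38 FPKM in WT (SD, n = 3 each). Of the FGF receptors and feedback genes, 9 of 13 were tested, with medians of 0.45 for MG against WT, 0.15 for MZ against WT and 0.38 for MG against MZ. Spry4, a feedback inhibitor of FGF signalling, averaged 119 ± 12.6 FPKM in MG, 229 ± 23.5 FPKM in MZ and 207 ± 39.3 FPKM in WT, with a log2 fold change of -0.94 for MG against MZ (adjusted p = 0.073) and -0.79 for MG against WT (adjusted p = 0.091). Spry1 averaged 56.3 ± 12.1 FPKM in MG, 42.7 ± 5.95 FPKM in MZ and 72.3 ± 11.5 FPKM in WT.

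Downstream of Kit, 21 of 24 genes were tested, with medians of 0.27 for MG against WT, -0.06 for MZ against WT and 0.19 for MG against MZ. Its most abundant genes were Pik3cd, a catalytic subunit of PI3K, with 85.3 ± 21.2 FPKM in MG, 133 ± 24.0 FPKM in MZ and 107 ± 48.9 FPKM in WT, and the transcription factor Foxo1, with 53.1 ± 3.37 FPKM in MG, 61.7 ± 2.48 FPKM in MZ and 65.4 ± 27.5 FPKM in WT. Of other connexins and junction or Notch genes, 19 of 27 were tested, with medians of 0.13, 0.08 and 0.19 in the same 3 comparisons. The Notch ligand Jag1 averaged 154 ± 78.0 FPKM in MG, 94.7 ± 13.7 FPKM in MZ and 106 ± 16.8 FPKM in WT. Of genes of ligand processing and inhibition, 11 of 18 were tested, with medians of -0.29, 0.003 and -0.21, and of 20 related secreted factors 10 were tested, with medians of -0.25, 0.08 and -0.15. Sec61b, part of the channel for secretory proteins, averaged 113 ± 29.6 FPKM in MG, 203 ± 19.8 FPKM in MZ and 182 ± 60.8 FPKM in WT. Fkbp1a averaged 75.6 ± 16.8 FPKM in MG, 86.1 ± 4.73 FPKM in MZ and 91.0 ± 9.16 FPKM in WT. The protease Astl averaged 751 ± 317 FPKM in MG, 642 ± 48.6 FPKM in MZ and 588 ± 83.4 FPKM in WT. With equal FPKM sums the medians for the related factors became 0.11 for MG against WT and 0.11 for MG against MZ, and those for processing 0.08 and 0.06, on the other side of 0. Over all genes this scaling gave medians of 0.36 and 0.39. With quantile normalization the medians stayed below 0, at -0.155 and -0.182 for the related factors and -0.184 and -0.215 for processing.

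Markers of other cells in the follicle summed to far less than the oocyte markers, and no gene of theirs passed. They were not low beside each of the 7 genes. Lyz2 had 149 FPKM in MZ 3, where Fgf8 had 127 FPKM and Kit 46.7 FPKM, but 16.3 FPKM in MZ 1. Of 20 granulosa and cumulus markers 7 were tested and 0 passed, with Cyp19a1 the highest at 13.1 ± 4.97 FPKM in MG, 14.7 ± 0.727 FPKM in MZ and 22.6 ± 5.28 FPKM in WT. Inha, an inhibin subunit, had 7.18, 1.38 and 6.00 FPKM in MG and 1.79, 3.45 and 0 FPKM in MZ, against 0, 3.39 and 1.76 FPKM in WT (MG against WT 1.16 log2 units, adjusted p = 0.43). The median of the list, in log2 units, was 0.29 for MG against WT, 0.01 for MZ against WT and 0.45 for MG against MZ, and its part in the values of the 7 genes was not tested. The 10 theca and stroma markers summed to 22.3 to 41.2 FPKM in MG, 17.6 to 61.6 FPKM in MZ and 23.4 to 32.4 FPKM in WT, with Lhcgr and Insl3 listed at 0 in all 9 libraries. Their most abundant genes were Dcn, with 8.34 to 31.3 FPKM over the 9 libraries, and Col3a1, with 4.11 to 13.5 FPKM. Blood and endothelial markers summed to 46.3 to 168 FPKM in MG, 28.2 to 219 FPKM in MZ and 63.7 to 91.0 FPKM in WT, led by Lyz2, with 16.3 to 149 FPKM, and Pecam1, with 7.07 to 21.4 FPKM. Of the 12 oocyte markers, 11 were tested and 0 passed. Zar1 averaged 1998 ± 1124 FPKM in MG, 4627 ± 158 FPKM in MZ and 3857 ± 1396 FPKM in WT, and Mos 1042 ± 361 FPKM in MG, 2167 ± 87.5 FPKM in MZ and 1608 ± 572 FPKM in WT, with adjusted p of 0.12 for Zar1 and 0.088 for Mos in MG against MZ. Not every oocyte marker had its lowest values in MG. Nlrp5, named after its values were seen, had 1068, 974 and 944 FPKM in MG, 483, 543 and 574 FPKM in MZ and 418, 608 and 1033 FPKM in WT (MG against MZ 0.90 log2 units, adjusted p = 0.12). The list's median was -0.22 for MG against WT and -0.40 for MG against MZ, but 0.17 and 0.04 with equal FPKM sums and 0.22 and 0.02 with quantile normalization. Over all genes the medians were 0.36 and 0.39 with equal FPKM sums and 0.008 and 0.005 with quantile normalization. The part of these markers in the values of Oosp1 and Gja4 was not tested.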

How the data were processed

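The 9 libraries (MG, MZ and WT, 3 each) were made from amplified RNA by the Smart-seq2 procedure with the NEBNext Ultra kit, per the labels' protocols, and sequenced with paired 150 bp reads (series design). Per the submitters' processing notes, the authors aligned reads to mm10 with TopHat2 2.0.13 and used Cufflinks 2.2.1 and Cuffdiff. What was deposited are FPKM, 1 value for a gene in a library, scaled by the authors to transcript length and library size. For every pair of groups the authors' deposited table adds a log2 fold change (the later-named group over the first), a p-value and a q-value. The sources used here do not state how strand was treated.

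Of 24255 rows, 27 with a date in place of a symbol were left out. The 10801 genes that reached 1 FPKM in 3 or more of the 9 libraries were tested on log2(FPKM + 1) with limma 3.58.1 in R 4.3.3 (lmFit, eBayes with trend), all 9 libraries in 1 fit, two-sided, with Benjamini-Hochberg adjustment within each comparison and a threshold of 0.05. This scale understates the change of low genes. Ratios and shares were compared by two-sided exact permutation tests. No count model was applied to FPKM. Fragments per library were estimated from FPKM steps in 3494 single-transcript genes (800 bp or longer). In these, 67.6 to 76.4% of the low values matched 1 fragment to within 5%. They are approximate and cover counting error only. Coordinates and lengths are from GENCODE M21 (GRCm38), which held 95.4% of symbols. The fit was tested on simulated data.

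The 7 genes and the 10 other gene lists were chosen with earlier results of these data known. All 7 genes are named. From each list every gene that passed was to be named, or else the 2 of highest mean FPKM; each of the 7 also has the 3 genes nearest in profile. A gene that this rule takes is not reported here. Gja1, Kitl, Nr5a2, Nlrp5, Oosp3, Mtor and 4930579J19Rik are outside this rule and were chosen after their values were seen. Alternatives covered the pseudocount, filter, scaling, variance model, libraries in the fit, a replicate block and each library left out. Removal of a trend on transcript length, and leaving out WT 1 and MG 3 together, were added after seeing the data.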

Additional observations from a re-analysis of the deposited data

How the results depend on the processing

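Across 21 alternatives, 413 of 441 log2 fold changes of the 7 genes kept their sign and their side of the threshold. Of the rest, 17 changed sign and 11 passed where they had not. Many of these signs could not change. The filter, the variance model, the replicate block and the 2 compared groups alone leave a fold change as it was. So does leaving out a library of the group not compared. No gene of the set passed for MG against WT under any of the 21 alternatives. For MG against MZ, 1 gene passed with the 2 compared groups alone (Oosp1, adjusted p = 0.047), 2 with the replicate block (Oosp1 and Gja4, adjusted p = 0.0287 each), 0 to 2 with a library left out (2 without MG 1 and 2 without WT 1, Oosp1 and Gja4 each time) and 3 with WT 1 and MG 3 left out together (Bmp15 adjusted p = 0.0474, Oosp1 0.0121, Gja4 0.0131), an alternative chosen after seeing the data. For MZ against WT, 1 gene passed with WT 1 and MG 3 left out (Oosp1). The cause of these changes was not tested beyond the construction of each alternative, which alters the spread or the libraries. No pairing by replicate number was seen. Deviations of same-numbered libraries correlated between -0.07 and 0.073, and those of differently numbered libraries between -0.114 and 0.082. Counting error in low genes pulls all of these toward 0, so a pairing could be missed. Over all genes, MG against WT had 3 to 66 calls (37 as reported), MZ against WT 0 to 32 (4) and MG against MZ 0 to 214 (14). The replicate block gave 13, 0 and 159.

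Sign changes of the log2 fold change were as follows. With quantile normalization Gdf9 was 0.0 for MG against WT, -0.092 for MZ against WT and 0.092 for MG against MZ, Bmp15 0.24 for MG against WT and Bmp6 0.026 for MZ against WT. The Gdf9 values there follow only from its rank, 1 or 2 in every library, and do not check its fold change. With equal FPKM sums Bmp15 was 0.030 for MG against WT, and with upper quartile scaling Bmp6 was 0.015 for MZ against WT. Without WT 1 and MG 3 the MG against WT values were 0.0048 for Gdf9, 0.024 for Bmp15, 0.0064 for Fgf8 and 0.0054 for Oosp1, and the MZ against WT values 0.061 for Bmp6 and 0.20 for Fgf8. With 1 library left out, MZ against WT ranged from -0.15 to 0.15 for Bmp6 and from -0.20 to 0.20 for Fgf8.

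Over the alternatives, 9 of 126 log2 ratios to Gdf9 changed sign, each with 1 library left out. The only other alternative for the ratios was the replicate block, which leaves the mean difference as it was and so could not change a sign. For MG against WT the ranges were -0.091 to 0.15 for Bmp15, -0.33 to 0.11 for Fgf8 and -0.87 to 0.062 for Oosp1. For MZ against WT they were -0.28 to 0.089 for Bmp6 and -0.34 to 0.098 for Fgf8, and for MG against MZ -0.097 to 0.079 for Fgf8. Of 147 differences in share, 17 changed sign, again each with 1 library left out. In percentage points, Gdf9 ranged from -0.259 to 0.546 for MG against WT, -0.0131 to 0.158 for MZ against WT and -0.351 to 0.454 for MG against MZ. Bmp15 ranged from -0.0212 to 0.0545 and Oosp1 from -0.0551 to 0.00187 for MG against WT. Fgf8 ranged from -0.00394 to 0.000716 for MG against WT, -0.00361 to 0.00104 for MZ against WT and -0.00214 to 0.00172 for MG against MZ, and Bmp6 from -0.000504 to 0.000288 for MZ against WT. Among the genes of the set, Bmp6 (31 to 101) and Fgf8 (43 to 85) had the fewest estimated fragments per library, so their relative counting error is largest. Gdf9, whose share also changed sign, had 9393 to 20632. The part of depth in these sign changes was not tested.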
